A study of Mus musculus with 9 samples.

Results

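A set of 10 genes that carry out or gate the lytic forms of cell death was followed in sorted mouse dendritic cells: Fas, Ripk1, Casp8, Ripk3 and Mlkl of the death receptor and necroptosis arm, and Nlrp3, Casp1, Casp4, Gsdmd and Ninj1 of the pyroptosis and membrane rupture arm. They were matched by gene symbol, 10 of 40879 symbols in the count files. The cells were cDC2s, conventional dendritic cells of type 2 that present antigen mainly to CD4 T cells; they were obtained by cell sorting after mouse bone marrow had been grown in 100 ng/ml recombinant human Flt3L for 9 days. RNA was read with a 3' tag kit that gives each transcript 1 tag near its 3' end, so levels of different genes can be set side by side without a length correction. There were 3 groups of 3 libraries. The A20 KO libraries (titled A20iKO) came from A20fl/fl x CD11ccre mice, in which Cre driven by CD11c acts in CD11c-expressing cells on a floxed gene for A20, the product of Tnfaip3 and an editor of ubiquitin chains. The IFNa libraries came from wild-type (WT) cells given interferon alpha on day 5, and the WT libraries from wild-type cells without a treatment entry. A protocol field names IFNa for all 9 libraries, so that A20 KO and WT cultures were left without it rests on the titles and on a treatment entry that only the 3 IFNa libraries have. The design text gives 3 mice per group. The sources used here do not give strain, age, sex, whether the WT mice carried Cre or the floxed gene, or whether each library is 1 mouse, so n counts libraries and p-values measure the spread between them.

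In necroptosis, the kinases RIPK1 and RIPK3 join through a shared interaction motif, and RIPK3 phosphorylates MLKL, which then breaches the plasma membrane. Caspase-8, recruited to Fas and other death receptors, starts apoptosis and cleaves RIPK1 and RIPK3, which holds necroptosis back, while A20 trims ubiquitin chains in the same receptor complexes. In pyroptosis, the sensor NLRP3 activates caspase-1, and mouse caspase-4 (also called caspase-11) responds to bacterial lipopolysaccharide in the cytosol; both cleave gasdermin D, which forms membrane pores, and NINJ1 then tears the membrane open.

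The promoters of 4 of the genes are shown because 3 of them (Mlkl, Ninj1 and Fas) were higher in A20 KO than in WT cells and Casp4 held 3 motif matches, as many as the Ripk1 window described after them. RefSeq windows of 300 bases, from 250 before to 50 after the start of transcription, were on hand for 9 of the 10 genes, in 12 windows, with coordinates of build GRCm38.p6; the count files use GRCm39. Each is printed 5′ to 3′ on the gene's own strand, and capitals mark a matched motif.
Mlkl, chr8:111338156-111338455, minus strand: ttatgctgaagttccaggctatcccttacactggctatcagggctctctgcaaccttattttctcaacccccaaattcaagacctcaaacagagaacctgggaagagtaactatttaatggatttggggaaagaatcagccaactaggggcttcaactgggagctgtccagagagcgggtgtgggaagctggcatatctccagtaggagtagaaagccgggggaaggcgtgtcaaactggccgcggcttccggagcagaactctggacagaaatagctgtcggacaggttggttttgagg
Ninj1, chr13:49187279-49187578, plus strand: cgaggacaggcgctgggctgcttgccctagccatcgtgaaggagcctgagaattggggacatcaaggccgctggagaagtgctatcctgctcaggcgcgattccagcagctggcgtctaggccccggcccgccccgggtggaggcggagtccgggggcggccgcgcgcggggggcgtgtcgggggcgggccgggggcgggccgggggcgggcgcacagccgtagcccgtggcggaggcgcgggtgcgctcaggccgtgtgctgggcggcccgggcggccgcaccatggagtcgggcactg
Fas, chr19:34290409-34290708, plus strand: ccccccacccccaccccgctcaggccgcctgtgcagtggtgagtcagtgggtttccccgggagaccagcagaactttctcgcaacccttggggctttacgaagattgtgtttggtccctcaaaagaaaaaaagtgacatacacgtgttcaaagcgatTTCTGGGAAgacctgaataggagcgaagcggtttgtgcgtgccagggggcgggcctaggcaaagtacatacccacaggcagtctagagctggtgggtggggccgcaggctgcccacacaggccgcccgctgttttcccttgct
Casp4, chr9:5308599-5308898, plus strand: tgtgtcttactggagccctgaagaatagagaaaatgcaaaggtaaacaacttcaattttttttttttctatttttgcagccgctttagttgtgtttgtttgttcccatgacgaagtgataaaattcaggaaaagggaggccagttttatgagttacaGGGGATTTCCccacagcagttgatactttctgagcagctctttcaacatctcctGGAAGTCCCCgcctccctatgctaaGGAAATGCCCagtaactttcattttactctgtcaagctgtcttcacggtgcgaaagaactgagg
A total of 3 motifs were searched on both strands. They were GAAANNGAAA, a core of the interferon-stimulated response element found in 3.44% of 32851 mouse promoter windows, TTCNNNGAA, the gamma-activated sequence found in 8.3%, and GGGNNNTTCC, an NF-kB site found in 5.56%. The Mlkl and Ninj1 windows held none of them. The Fas window held 1 gamma-activated sequence, TTCTGGGAA, with its first base at -93 from the start site. The Casp4 window held 3 NF-kB matches, GGGGATTTCC at -93, GGAAGTCCCC at -39 and GGAAATGCCC at -14. A second Casp4 window, shifted by 11 bases, held the same 3. Of the windows not printed, 1 of the 2 for Ripk1 held the interferon core GAAATCGAAA at -5 and TTCCCGGAA at -108 and -11, the last overlapping that core, and those for Nlrp3, Ripk3, Casp8 and Casp1 held no match. A match describes letters in this window and is not evidence of binding.

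All 10 genes passed the filter on low counts, which kept 13251 genes. Values are CPM, a count relative to its library total after TMM scaling, and errors are SD over 3 libraries. Differences were tested with edgeR's quasi-likelihood test, with Benjamini-Hochberg adjustment over the 13251 genes and a threshold of 0.05. In A20 KO against WT cells, 3 of the 10 genes were higher (Mlkl, Ninj1 and Fas) and 1 was lower (Nlrp3), against 10.7% of all tested genes called in either direction, 5.77% higher and 4.91% lower. In IFNa against WT cells, 1 was higher (Mlkl) and 0 were lower, against 3.1% of all genes called, 2.4% higher and 0.702% lower. In that comparison 3 members were higher and 0 lower at an unadjusted p under 0.05, and DESeq2 likewise called Mlkl alone while limma called none. In A20 KO against IFNa cells, 1 was higher (Ninj1), against 5.46% of all genes called, 2.05% higher and 3.41% lower. The median log2 fold change of the 10 genes was 0.40, 0.18 and 0.46 in these 3 comparisons, against -0.01, -0.02 and 0.02 over all tested genes. The libraries of the compared groups did not overlap for 5 of the 10 genes in A20 KO against WT, 3 higher and 2 lower, against 28% of all genes (15.4% higher, 12.6% lower). They did not overlap for 2 genes in IFNa against WT, both higher, against 18.2% of all genes (9.77% higher, 8.45% lower), and for 3 in A20 KO against IFNa, 2 higher and 1 lower, against 24.6% (12.3% each way). Every pair of these comparisons shares the libraries of a group, so their values are given side by side only. The 10 genes and the further lists below were chosen with earlier results of these data known. Their shares and medians beside those of all genes are therefore descriptions and not tests.

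**Figure D1:**
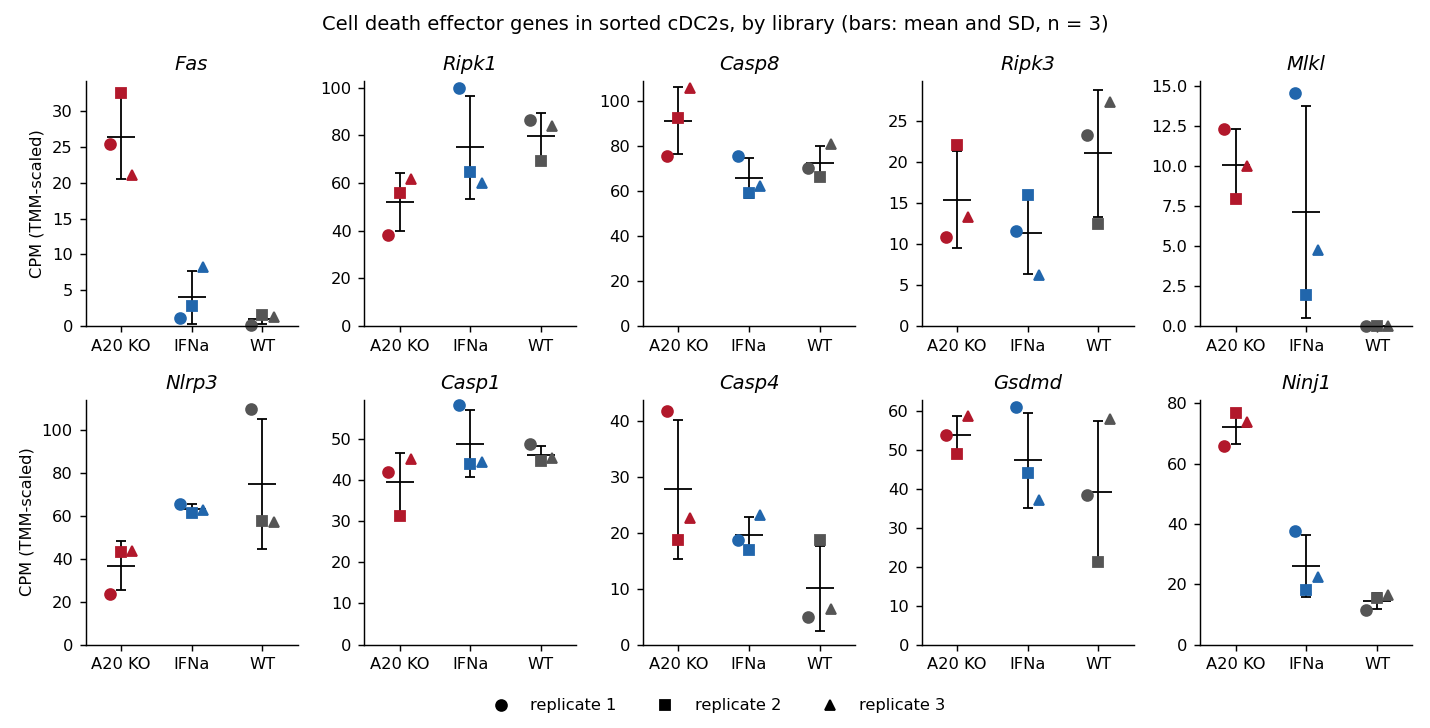
Level of each of the 10 genes in CPM (TMM-scaled, linear axes from 0) in the 3 A20 KO, 3 IFNa and 3 WT libraries; points are libraries, marked by replicate, and lines with whiskers are mean and SD. Mlkl sits at 0 in all WT libraries, and Fas and Ninj1 in A20 KO libraries sit above all libraries of the other groups.

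**Figure D2:**
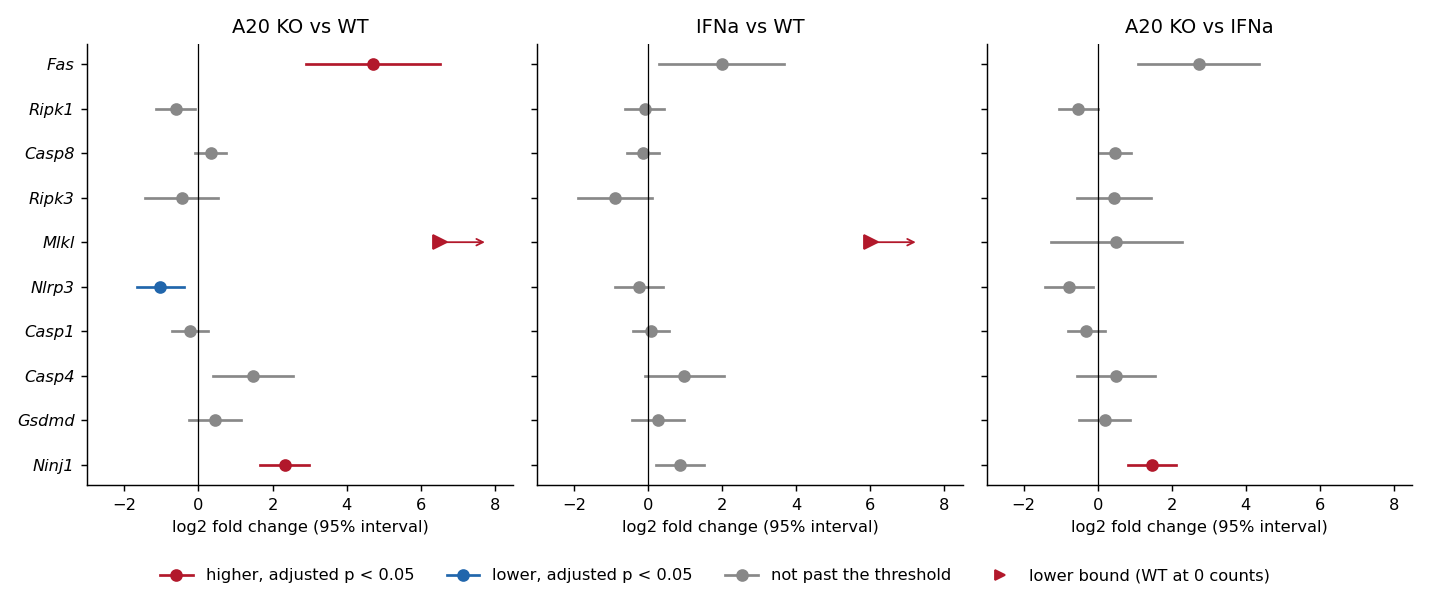
Log2 fold change of each gene with its 95% interval in A20 KO against WT, IFNa against WT and A20 KO against IFNa, coloured by whether edgeR's adjusted p is under 0.05. Triangles with arrows give Mlkl as a lower bound, because WT held no Mlkl count.

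Fas, the receptor for Fas ligand that builds the caspase-8 platform, was read at 193, 287 and 200 counts in A20 KO libraries, at 10, 24 and 55 in IFNa libraries and at 2, 12 and 12 in WT libraries. Its level was 26.3 ± 5.81 CPM in A20 KO, 4.01 ± 3.70 in IFNa and 1.01 ± 0.728 in WT cells. Every A20 KO library lay above every other library, while IFNa and WT libraries overlapped. Fas was 26.2-fold higher in A20 KO than in WT cells on mean CPM (log2 fold change 4.72, SE 0.84, edgeR adjusted p = 0.00242), and it stayed past the threshold under all 19 alternatives tried, with a log2 fold change of 4.22 to 5.34. In IFNa against WT cells the log2 difference was 1.99 (SE 0.78, 95% interval 0.30 to 3.68, edgeR adjusted p = 0.273), and 0.95 without IFNa replicate 3, the lowest of the fits that leave out 1 library, which reach 2.47. Between A20 KO and IFNa cells it was 2.72 (SE 0.75, 1.10 to 4.35, edgeR adjusted p = 0.0548), just outside the threshold. It passed in 10 of 19 alternatives there, among them the fits without IFNa replicate 3 (3.77, edgeR adjusted p = 0.0219), without WT replicate 1 and without WT replicate 2, with adjusted p from 0.00102 to 0.205 over all 19. Fasl, its ligand, chosen after its values were seen, held 0 counts in all 9 libraries. In bulk RNA of sorted cells, fewer cells of a type and less RNA per cell cannot be told apart.

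Ripk1, the kinase at the head of the necroptosis complex, was at 38.4, 55.9 and 61.6 CPM in A20 KO libraries, at 99.7, 64.8 and 60.2 in IFNa libraries and at 86.3, 69.3 and 84.1 in WT libraries. Every A20 KO library was below every WT library, but the difference missed the threshold (log2 -0.62, SE 0.25, 95% interval -1.15 to -0.09, edgeR adjusted p = 0.146). It was -0.53 (SE 0.25, edgeR adjusted p = 0.308) in A20 KO against IFNa and -0.09 (edgeR adjusted p = 0.951) in IFNa against WT cells. Only with Col1a1 as a covariate, a fit  chosen after seeing the data, did Ripk1 pass (edgeR adjusted p = 0.00653 against WT and 0.0228 against IFNa, out of 19 alternatives with values up to 0.339 and 0.79). Casp8, the protease that holds the complex back, ran from 75.7 to 105.8 CPM in A20 KO libraries, from 59.3 to 75.8 in IFNa libraries and from 66.5 to 80.7 in WT libraries. Its ranges overlapped between A20 KO and both other groups, by little in the IFNa case, and no difference passed (log2 0.34, 95% interval -0.08 to 0.75, edgeR adjusted p = 0.354 in A20 KO against WT; -0.14, edgeR adjusted p = 0.881 in IFNa against WT; 0.47, edgeR adjusted p = 0.226 in A20 KO against IFNa). Ripk3, the kinase that activates MLKL, was at 10.8, 22.0 and 13.3 CPM in A20 KO libraries, at 11.5, 16 and 6.24 in IFNa libraries and at 23.2, 12.4 and 27.3 in WT libraries. All 3 groups overlapped, and the log2 difference was -0.45 (SE 0.46, edgeR adjusted p = 0.659) in A20 KO against WT and -0.90 (SE 0.46, edgeR adjusted p = 0.462) in IFNa against WT cells.

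Mlkl, the executioner that opens the membrane, was read in every A20 KO and every IFNa library and in no WT library. It held 94, 70 and 95 counts in A20 KO libraries, 134, 17 and 32 in IFNa libraries and 0, 0 and 0 in WT libraries. That is 10.1 ± 2.21 CPM in A20 KO and 7.11 ± 6.64 in IFNa cells, with IFNa replicate 1 alone at 14.6 CPM. Against 3 counts over the WT group, which is 0.109 CPM and covers counting error only, Mlkl was at least 92.7-fold higher in A20 KO cells (edgeR adjusted p = 0.00108) and at least 65.2-fold higher in IFNa cells (edgeR adjusted p = 0.00372). Without IFNa replicate 1 the IFNa bound was 30.8-fold, and leaving out each other library in turn gave 41.0 to 88.8-fold in IFNa and 58.3 to 102.6-fold in A20 KO cells. Mlkl was past the threshold in all 19 alternatives in A20 KO against WT, and in 18 of 19 in IFNa against WT; limma gave 0.0723 there, with adjusted p from 2.46e-07 to that value over the 19. A20 KO and IFNa cells differed by 0.50 on the log2 scale (SE 0.80, 95% interval -1.26 to 2.26, edgeR adjusted p = 0.885), an interval that leaves room for a difference either way.

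Levels of other cell types' markers also differed between the groups. The 12 monocyte and macrophage markers summed to 2167 to 2465 CPM in A20 KO, 1966 to 2485 in IFNa and 1123 to 1343 in WT libraries, with none at 0 in any library, and 8 of 12 were called higher and 1 lower in A20 KO against WT, 3 higher and 1 lower in IFNa against WT. In that list Ly6c2 averaged 741 CPM in A20 KO, 679 in IFNa and 26.0 in WT cells, while Adgre1 averaged 37.1 CPM in A20 KO, 38.4 in IFNa and 92.5 in WT cells. The 13 cDC2 markers, all read in every library, summed to 11746 to 12839 CPM in A20 KO, 17534 to 20711 in IFNa and 24081 to 30832 in WT libraries. Of these, 10 were called lower and 2 higher in A20 KO against WT, and 4 lower in IFNa against WT. H2-Aa, H2-Ab1 and Cd74 carried most of each sum. They averaged 4554, 3809 and 2935 CPM in A20 KO and 11867, 8502 and 5921 in WT cells. Means were higher in A20 KO than in WT cells for Sirpa (456 against 170), Clec4a4 (34.6 against 7.88) and Itgax (133 against 91.8). The Itgax libraries overlapped, with A20 KO replicate 1, at 90.4 CPM, below WT replicate 1. Means were lower in A20 KO cells for the rest. Among these were Cd209a (10.99 against 331 in WT cells), Mgl2 (8.26 against 68.1) and Clec10a (103 against 516). Plasmacytoid dendritic cell markers summed to 926 to 1210 CPM in A20 KO, 966 to 1105 in IFNa and 694 to 815 in WT libraries, with 6 of 8 tested called higher and 1 lower in A20 KO against WT and 2 higher in IFNa against WT. Among them Siglech averaged 63.0 CPM in A20 KO, 159 in IFNa and 242 in WT cells, while Tcf4 averaged 529, 394 and 312. Neutrophil markers summed to 270 to 388 CPM in A20 KO, 325 to 381 in IFNa and 100.2 to 122 in WT libraries (of 11 tested, 3 higher and 2 lower in A20 KO against WT, 3 higher in IFNa against WT), with Ly6g at 0 in every library. The genes behind these sums differed between groups. Prtn3 averaged 174 CPM in A20 KO, 7.2 in IFNa and 0.594 in WT cells, and Mpo 65.4, 2.95 and 1.79. S100a8 averaged 5.99, 121 and 36.5 CPM in these groups, and S100a9 4.85, 157 and 47.8. Mast cell and basophil markers summed to 177 to 199 CPM in A20 KO, 103 to 167 in IFNa and 29.4 to 66.7 in WT libraries (of 5 tested, 3 higher in A20 KO against WT and 2 in IFNa against WT). Of all tested genes, 5.77% were higher and 4.91% lower in A20 KO against WT, and 2.4% and 0.702% in IFNa against WT cells. The part of these marker differences in the values of the 10 genes was not tested.

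Nlrp3, the sensor of the best known inflammasome, was at 23.5, 43.1 and 43.4 CPM in A20 KO libraries, at 65.4, 61.1 and 62.6 in IFNa libraries and at 109.7, 57.4 and 57.2 in WT libraries. It fell to 36.7 ± 11.4 CPM in A20 KO, against 74.7 ± 30.2 in WT cells (log2 -1.03, SE 0.30, edgeR adjusted p = 0.0444), and the groups did not overlap. This call was lost in 10 of 19 alternatives, including every fit that left out one library other than WT replicate 2 or 3. Without WT replicate 1, its highest library, the log2 difference was -0.64 (edgeR adjusted p = 0.192), and the adjusted p ran from 0.00146 to 0.192 over the 19. The libraries of A20 KO and IFNa cells did not overlap either, at a log2 difference of -0.78 (95% interval -1.42 to -0.13, edgeR adjusted p = 0.187). In IFNa against WT cells it was -0.25 (SE 0.29, edgeR adjusted p = 0.844).

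Casp1, the protease that NLRP3 activates, passed in no comparison. It was at 41.8, 31.3 and 45.0 CPM in A20 KO libraries, at 58.2, 43.9 and 44.3 in IFNa libraries and at 48.7, 44.5 and 45.3 in WT libraries. The log2 difference was -0.23 in A20 KO against WT (95% interval -0.72 to 0.26, edgeR adjusted p = 0.654) and 0.08 in IFNa against WT (-0.41 to 0.57, edgeR adjusted p = 0.954). These intervals bound a change to less than 1 log2 unit either way, without showing that the groups are alike.

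Casp4, the lipopolysaccharide-responsive caspase, was at 41.9, 18.7 and 22.8 CPM in A20 KO libraries, at 18.7, 16.9 and 23.2 in IFNa libraries and at 5.00, 18.7 and 6.40 in WT libraries. WT replicate 2 reached the level of the lowest A20 KO library, while the other WT libraries lay below all the rest. The log2 difference was 1.48 in A20 KO against WT (SE 0.50, 95% interval 0.40 to 2.55, edgeR adjusted p = 0.0837) and 0.97 in IFNa against WT (-0.10 to 2.04, edgeR adjusted p = 0.454), so neither passed. Without WT replicate 2 the IFNa difference was 1.78 (edgeR adjusted p = 0.0506, the lowest of 19 alternatives that reach 0.695). It did pass in 6 of 19 alternatives in A20 KO against WT cells. Without WT replicate 2 the A20 KO difference was 2.28 (edgeR adjusted p = 0.00514), and the adjusted p ran from that value to 0.276 over the 19. DESeq2 gave 0.0391 and limma 0.0308.

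The stromal transcript Col1a1, which encodes a collagen chain, separated libraries within each group. It was at 2720, 469 and 286 CPM in A20 KO libraries, at 380, 1475 and 3105 in IFNa libraries and at 461, 2750 and 1008 in WT libraries. The library with the most Col1a1 in each group, A20 KO replicate 1, IFNa replicate 3 and WT replicate 2, was also the library with the most Casp4 in its group. The other libraries of A20 KO and IFNa did not follow that order. Casp4 was at 18.7 and 22.8 CPM in A20 KO replicates 2 and 3, and at 18.7 and 16.9 in IFNa replicates 1 and 2. WT replicates 1 and 3, at 5.00 and 6.40 CPM, did follow it. The 10 stromal markers summed to 470 to 4300 CPM in A20 KO, 596 to 4685 in IFNa and 761 to 4509 in WT libraries. With the 3 libraries highest in Col1a1 left out together, Casp4 passed in A20 KO against WT cells (log2 1.86, edgeR adjusted p = 0.0336). These libraries were picked from their Col1a1 values. They were also the highest in Casp4 of their groups, so this fit cannot tell the 2 apart. Casp4 also passed with log Col1a1 as a covariate, a fit chosen after seeing the data (1.75, edgeR adjusted p = 0.00698). Fas stood at 25.4, 32.6 and 21.1 CPM in A20 KO replicates 1, 2 and 3, with no such order by Col1a1. It was at 1.09, 2.78 and 8.17 CPM in IFNa replicates 1, 2 and 3, which is the order of Col1a1. In WT replicates 1, 2 and 3 it was at 0.196, 1.61 and 1.22 CPM. Of these, replicate 1 was lowest in Col1a1 too. WT replicates 2 and 3 held 12 Fas counts each, so their order in CPM comes from library scaling alone. The part of Col1a1-rich RNA in the Casp4 and Fas values was not tested.

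**Figure D3:**
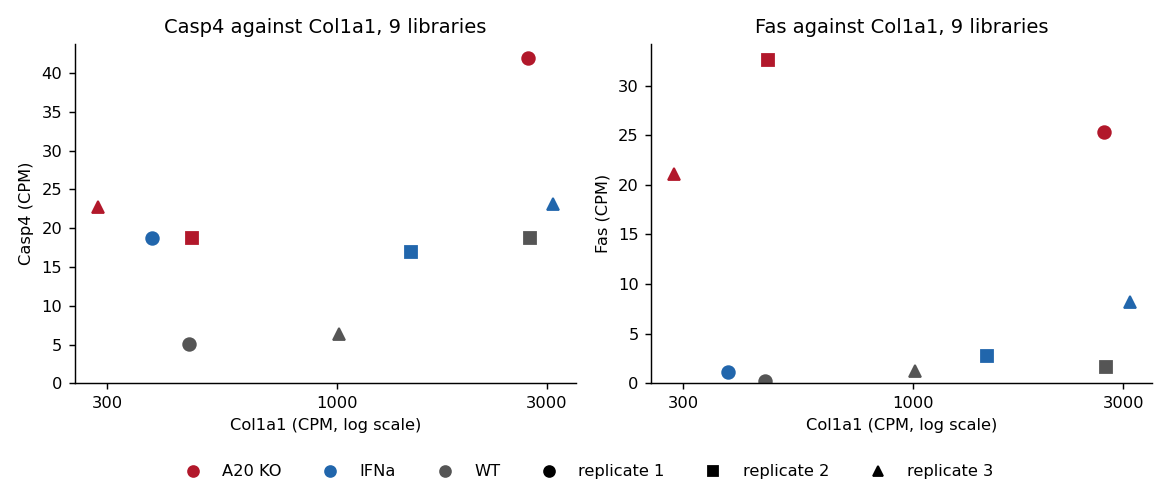
Casp4 and Fas in CPM (linear axes) against Col1a1 in CPM (log axis) in the 9 libraries, coloured by group and marked by replicate. The library with the most Col1a1 of each group has the most Casp4 of its group, but the other A20 KO and IFNa libraries do not follow Col1a1. Fas follows the order of Col1a1 within the IFNa libraries but not within the A20 KO libraries (21.1 to 32.6 CPM). WT replicates 2 and 3 hold 12 Fas counts each, so their order comes from scaling alone.

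Gsdmd, the pore former, was at 53.8, 48.9 and 58.7 CPM in A20 KO libraries, at 60.9, 43.9 and 37.1 in IFNa libraries and at 38.4, 21.3 and 57.9 in WT libraries. All 3 groups overlapped. The log2 difference was 0.46 in A20 KO against WT (95% interval -0.24 to 1.15, edgeR adjusted p = 0.478), 0.27 in IFNa against WT (edgeR adjusted p = 0.844) and 0.18 in A20 KO against IFNa (edgeR adjusted p = 0.899).

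Ninj1, which completes the rupture of the plasma membrane downstream of pores, was at 65.7, 76.9 and 73.7 CPM in A20 KO libraries, at 37.7, 18.1 and 22.4 in IFNa libraries and at 11.4, 15.4 and 16.4 in WT libraries. No 2 of the 3 groups overlapped. Ninj1 was 5.02-fold higher in A20 KO than in WT cells (log2 2.33, SE 0.31, edgeR adjusted p = 0.000272) and passed in all 19 alternatives, with a log2 fold change of 2.19 to 2.44. It was 2.77-fold higher in A20 KO than in IFNa cells (log2 1.47, SE 0.30, edgeR adjusted p = 0.0104). That call was lost without A20 KO replicate 2 (1.41, edgeR adjusted p = 0.0524), without IFNa replicate 2 (1.25, edgeR adjusted p = 0.0559) and without the 3 libraries highest in Col1a1 (1.43, edgeR adjusted p = 0.0563), and the adjusted p ran from 0.000146 to the last value over 19 alternatives. In IFNa against WT cells the log2 difference was 0.86 (SE 0.30, 0.22 to 1.5, edgeR adjusted p = 0.192) and did not pass.

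The order of the 10 levels differed between groups. Casp8 led in A20 KO cells at 91.4 ± 15.1 CPM, followed by Ninj1 at 72.1 ± 5.79, and Ninj1 stood apart from Gsdmd, the next gene, with no overlap between their libraries. Ninj1 ranked 6 in IFNa and 7 in WT cells. Ripk1 led in IFNa cells at 74.9 ± 21.6 CPM and in WT cells at 79.9 ± 9.26, with libraries that overlapped those of the next gene in both. Mlkl was the lowest of the 10 in A20 KO and in WT cells and Fas the lowest in IFNa cells. Below Gsdmd in A20 KO cells, every neighbouring pair overlapped. In WT cells the steps from Casp8 to Casp1, from Casp4 to Fas and from Fas to Mlkl did not overlap. Summed over the 10 genes, the level was 389 to 455 CPM in A20 KO, 329 to 444 in IFNa and 307 to 393 in WT libraries.

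Ratios within a library, chosen after their values were seen and given with no test, set pairs of these genes side by side. Per 100 counts of Ripk1, Casp8 had 197, 166 and 172 counts in A20 KO libraries, 76.1, 91.6 and 103 in IFNa libraries and 81.3, 95.9 and 96.0 in WT libraries. The A20 KO libraries thus lay above all others, although neither gene passed alone. Per 100 counts of Ripk3, Mlkl had 115, 36.1 and 75.4 counts in A20 KO libraries, 126, 12.3 and 76.2 in IFNa libraries and none in WT libraries. Per 100 counts of Gsdmd, Ninj1 had 122, 157 and 126 counts in A20 KO libraries, 61.9, 41.2 and 60.4 in IFNa libraries and 29.7, 72.3 and 28.2 in WT libraries. Ninj1 exceeded Gsdmd only in the A20 KO libraries, and WT replicate 2, where Gsdmd was lowest, lay above the IFNa libraries. Per 100 counts of Casp1, Casp4 had 100.3, 59.8 and 50.6 counts in A20 KO libraries, 32.2, 38.5 and 52.3 in IFNa libraries and 10.3, 42 and 14.1 in WT libraries.

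**Figure D4:**
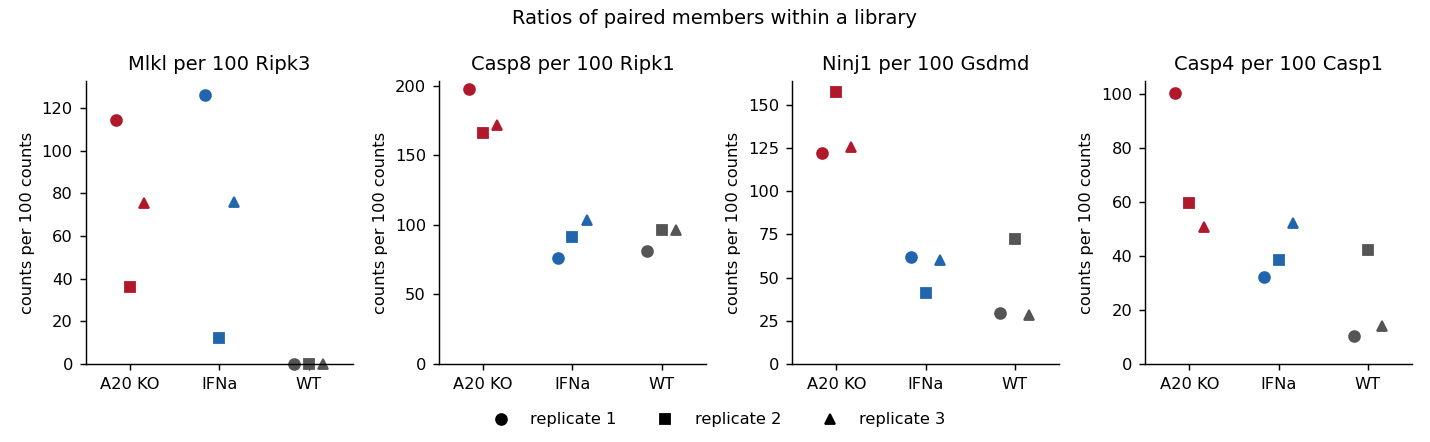
Counts of Mlkl per 100 of Ripk3, Casp8 per 100 of Ripk1, Ninj1 per 100 of Gsdmd and Casp4 per 100 of Casp1 in each library (linear axes from 0), with points marked by replicate. Casp8 per 100 Ripk1 is 166 to 197 in A20 KO libraries and at most 103 in the others.

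Among 19 further genes of the necroptosis complex, all tested, 5 were higher and 1 lower in A20 KO against WT cells, 1 was higher in IFNa against WT cells, and 3 were higher and 1 lower in A20 KO against IFNa cells. Shares over all tested genes were 5.77% higher and 4.91% lower, 2.4% and 0.702%, and 2.05% and 3.41% in the same order. The median log2 fold change of the 19 was 0.30, 0.14 and 0.06 in these comparisons, against -0.01, -0.02 and 0.02 over all tested genes. Zbp1, the nucleic acid sensor that binds RIPK3, was at 50.1 ± 12.6 CPM in A20 KO, 112 ± 20.6 in IFNa and 2.99 ± 3.11 in WT cells. It rose in both comparisons with WT, by 4.02 on the log2 scale in A20 KO (SE 0.62, edgeR adjusted p = 0.000825) and by 5.18 in IFNa cells (SE 0.64, edgeR adjusted p = 0.000324), and held in all 19 alternatives of each. Zbp1 was at 2.55, 0.134 and 6.30 CPM in the WT libraries, and without WT replicate 3 the log2 difference was 5.10 in A20 KO and 6.27 in IFNa cells. Zbp1 in A20 KO libraries lay below the IFNa libraries, without passing edgeR's test (-1.16, edgeR adjusted p = 0.286). There limma called Zbp1 lower, and DESeq2 did not.

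Tnip1, a ubiquitin-binding partner of A20, was at 168 ± 31.5 CPM in A20 KO, 56.2 ± 9.45 in IFNa and 44.4 ± 12.7 in WT cells (log2 1.92 in A20 KO against WT, edgeR adjusted p = 0.000179; 1.58 in A20 KO against IFNa, edgeR adjusted p = 0.00139). Mapkapk2, a kinase that phosphorylates RIPK1, was also higher in A20 KO than in WT (1.17, edgeR adjusted p = 0.000486) and IFNa cells (1.03, edgeR adjusted p = 0.00239). Birc2, a ubiquitin ligase for RIPK1, was higher in A20 KO than in WT cells (1.23, edgeR adjusted p = 0.000853) and than in IFNa cells (0.72, edgeR adjusted p = 0.0413), the second call being lost without any one of the A20 KO or IFNa libraries (edgeR adjusted p up to 0.177). Cflar, the caspase-8 inhibitor cFLIP, named after its values were seen, was at 92.8 ± 5.51 CPM in A20 KO, 68.4 ± 3.66 in IFNa and 43.1 ± 1.89 in WT cells (log2 1.11 in A20 KO against WT, edgeR adjusted p = 0.000995). In IFNa against WT cells DESeq2 called Cflar higher and edgeR did not (log2 0.67, edgeR adjusted p = 0.0601). Tlr3, which signals to RIPK3 through TRIF and is also a marker of type 1 dendritic cells (cDC1s), was the gene that fell: 3.88 ± 3.70 CPM in A20 KO, 27.2 ± 3.21 in IFNa and 44.6 ± 16.6 in WT cells (log2 -3.53 in A20 KO against WT, edgeR adjusted p = 0.00521; -2.82 in A20 KO against IFNa, edgeR adjusted p = 0.0300). Without A20 KO replicate 1 the differences were -4.45 and -3.73. The second of these calls was lost without A20 KO replicate 3 or any IFNa library (edgeR adjusted p up to 0.108). The 10 cDC1 markers, Tlr3 among them, summed to 727 to 939 CPM in A20 KO, 1304 to 1513 in IFNa and 1587 to 1940 in WT libraries, and their part in the Tlr3 value was not tested.

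Of 24 inflammasome sensors, adaptors and products in the files, 19 were tested; 4 were higher and 1 lower in A20 KO against WT, 1 higher in IFNa against WT, and 3 higher and 1 lower in A20 KO against IFNa cells. Over all tested genes the shares were 5.77% higher and 4.91% lower, 2.4% and 0.702%, and 2.05% and 3.41% in the same order. The list's median log2 fold change was 0.28, 0.18 and 0.12, against -0.01, -0.02 and 0.02 over all tested genes. Il1b, the cytokine that caspase-1 matures, was at 163, 138 and 157 CPM in A20 KO libraries, at 14.4, 8.11 and 11.9 in IFNa libraries and at 14.6, 6.55 and 0 in WT libraries. It was 21.6-fold higher in A20 KO than in WT cells (log2 4.43, edgeR adjusted p = 0.00334; 5.62 without WT replicate 1 and 3.83 without WT replicate 3) and 13.3-fold higher than in IFNa cells (3.73, edgeR adjusted p = 0.0139); the second call was lost without any one IFNa library (edgeR adjusted p up to 0.0876). Il1rn, the receptor antagonist, had 297, 117 and 143 counts in A20 KO libraries, 27, 26 and 11 in IFNa libraries and 0, 2 and 0 in WT libraries. Over the 2 WT counts its ratio was 296 in A20 KO (95% exact Poisson interval 81.5 to 2448, edgeR adjusted p = 0.000248) and 35.9 in IFNa cells (9.54 to 303, edgeR adjusted p = 0.0163), intervals that cover counting error only. WT replicate 2 alone held those counts, and without A20 KO replicate 1 the fitted log2 difference of A20 KO against WT was 7.26, against 7.95 with it. The IFNa call was lost without IFNa replicate 2, WT replicate 1 or WT replicate 3 and with limma (0.311, the highest of 19). The A20 KO against IFNa call on Il1rn (log2 3.14, edgeR adjusted p = 0.0274) was lost without any one A20 KO or IFNa library and in 9 of 19 alternatives in all, at up to 0.247; it was 2.48 without A20 KO replicate 1. Mefv, the gene of the pyrin sensor, was at 20.6 ± 3.15 CPM in A20 KO, 0.971 ± 0.461 in IFNa and 1.44 ± 1.47 in WT cells (log2 3.8 in A20 KO against WT, edgeR adjusted p = 0.0207; 4.37 in A20 KO against IFNa, edgeR adjusted p = 0.0193). The first call was lost without A20 KO replicate 2 or 3 or WT replicate 1 (edgeR adjusted p up to 0.0818) and was 4.81 without WT replicate 3, and the second without A20 KO replicate 2 or 3 or any IFNa library (up to 0.0801). Txnip, a thioredoxin-binding protein linked to NLRP3 activation, fell to 273 ± 35.0 CPM in A20 KO, against 728 ± 142 in IFNa and 988 ± 129 in WT cells (log2 -1.85 against WT, edgeR adjusted p = 1.62e-05; -1.41 against IFNa, edgeR adjusted p = 0.000303) and held in all 19 alternatives of both comparisons. Txnip was the only member of this list called lower in A20 KO against WT cells. Of the 19 tested, 8 had a negative log2 fold change there, and 3 had A20 KO libraries all below the WT libraries.

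**Figure D5:**
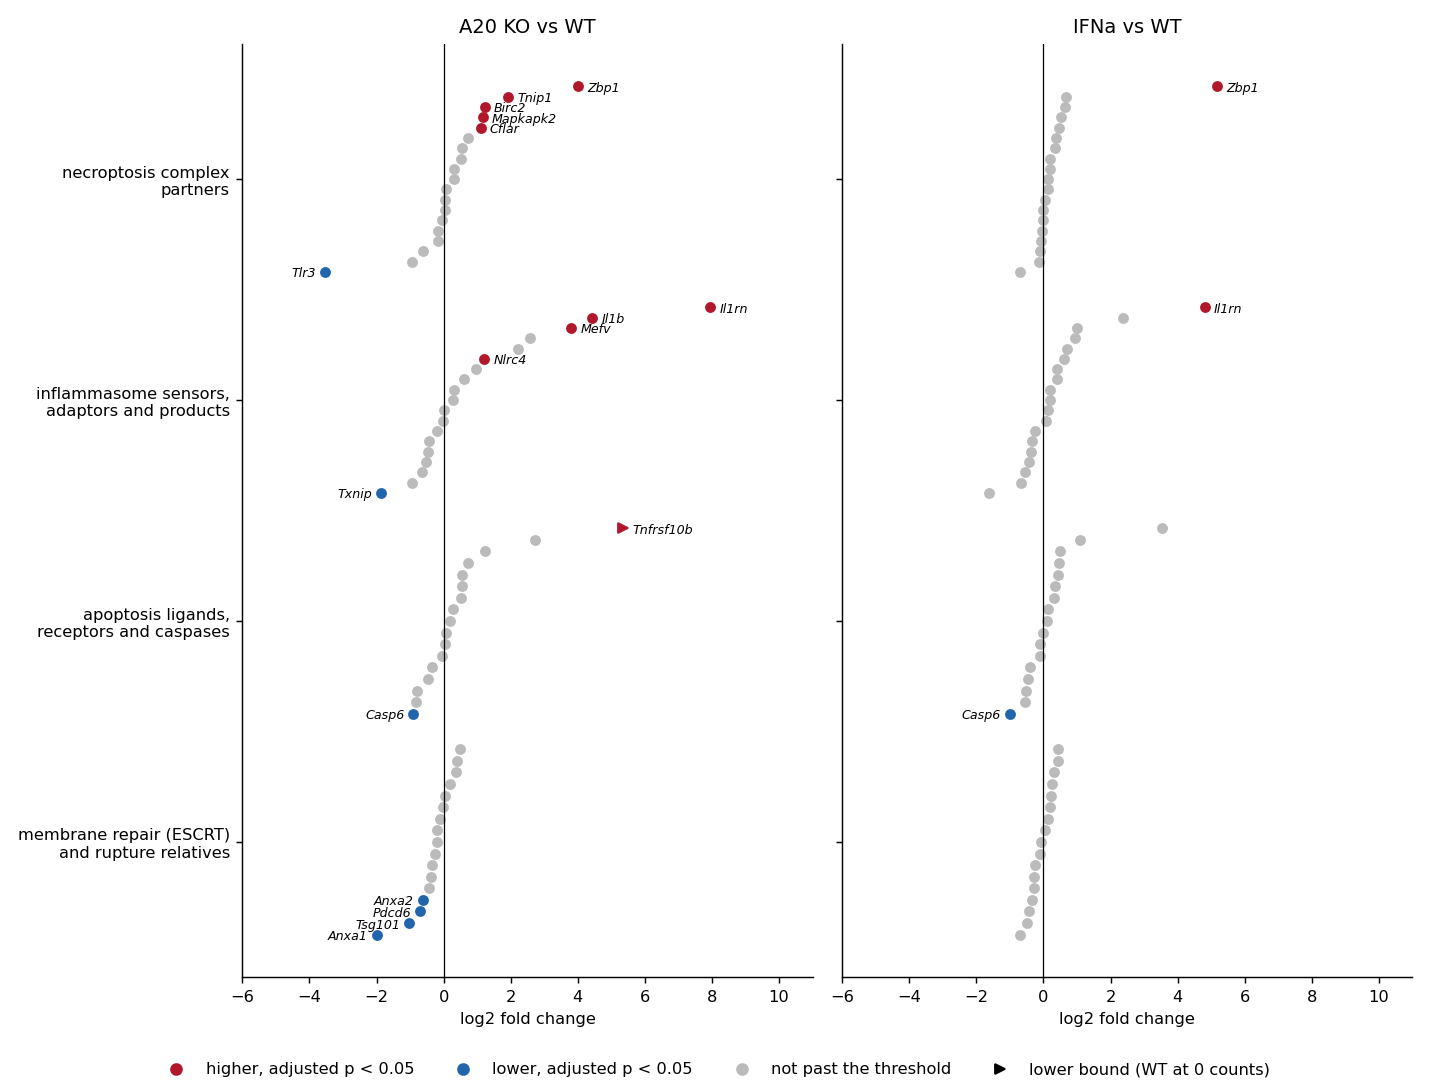
Fitted log2 fold change of every tested gene of 4 pathway lists in A20 KO against WT and IFNa against WT, one row per gene sorted within its list; named points have an edgeR adjusted p under 0.05. The triangle for Tnfrsf10b is a lower bound, and the point of Il1rn rests on 2 WT counts.

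Of 18 apoptosis ligands, receptors and caspases, 17 were tested; 1 was higher and 1 lower in A20 KO against WT, 1 lower in IFNa against WT and 0 changed in A20 KO against IFNa cells, where edgeR had 1 higher and 1 lower at an unadjusted p under 0.05 and DESeq2 and limma called 1 each (Tnfrsf10b). Of all tested genes, 5.77% were higher and 4.91% lower in A20 KO against WT, so 1 of 17 each way is near that share. The shares were 2.4% and 0.702% in IFNa against WT, and 2.05% and 3.41% in A20 KO against IFNa cells. The list's median log2 fold change was 0.20, 0.12 and 0.09, against -0.01, -0.02 and 0.02 over all tested genes. Tnfrsf10b, the mouse receptor for TRAIL and like Fas a death receptor, had 32, 23 and 62 counts in A20 KO libraries and 0 in every IFNa and WT library, at least 40.8-fold over 3 counts in the WT group (edgeR adjusted p = 0.0367). That call was lost without any one A20 KO or WT library, at an edgeR adjusted p of up to 0.151. Casp6, an effector caspase, fell to 35.1 ± 6.63 CPM in A20 KO and 33.0 ± 5.55 in IFNa, against 65.7 ± 10.6 in WT cells (log2 -0.90, edgeR adjusted p = 0.0314, and -0.99, edgeR adjusted p = 0.0466). These calls passed in 12 and 9 of 19 alternatives; the first was lost without any A20 KO library or WT replicate 1 or 3, the second without any IFNa library, A20 KO replicate 2 or 3, or WT replicate 1 or 3, with edgeR adjusted p up to 0.133 and 0.196.

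Of 19 membrane repair and rupture relatives, mostly of the ESCRT complexes that shed damaged membrane, 17 were tested. In A20 KO against WT cells 0 were higher and 4 lower, with 0 higher at an unadjusted p under 0.05 by edgeR and by limma and 1 by DESeq2, and 0 called higher by either tool. Against IFNa cells, A20 KO cells had 0 higher and 1 lower, with 0 higher at an unadjusted p under 0.05 by any of the 3 tools. In IFNa against WT cells edgeR called 0 (2 lower at an unadjusted p under 0.05), limma called 0 and DESeq2 called 1 lower. Of all tested genes, 5.77% were higher and 4.91% lower in A20 KO against WT, and 2.05% and 3.41% in A20 KO against IFNa cells. The shares were 2.4% and 0.702% in IFNa against WT cells. The list's median log2 fold change was -0.21, -0.20 and -0.08 in these comparisons, against -0.01, 0.02 and -0.02 over all tested genes. Anxa1, an annexin that binds wounded membrane, fell to 40.4 ± 4.59 CPM in A20 KO, against 99.0 ± 18.6 in IFNa and 161 ± 18.5 in WT cells (log2 -2.0 against WT, edgeR adjusted p = 2.44e-05; -1.30 against IFNa, edgeR adjusted p = 0.00135), and held in all 19 alternatives of both. Anxa2 fell by 0.63, the ESCRT component Tsg101 by 1.02 and Pdcd6, a calcium sensor that recruits ESCRT, by 0.71 on the log2 scale in A20 KO against WT cells (edgeR adjusted p = 0.0204, 0.0263 and 0.0357). Each of these 3 calls was lost without A20 KO replicate 3; others that ended one or more of them were every other A20 KO library, every IFNa library and WT replicates 1 and 3, with edgeR adjusted p up to 0.0701, 0.118 and 0.173. Ninj2, the close relative of Ninj1, chosen after its values were seen, held 15 counts in A20 KO replicate 3 and 0 in the other 8 libraries.

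The genes whose profiles over the 9 libraries lay nearest to each called gene were found by Euclidean distance between centred log2 CPM. They were Bhlhb9 (2.12) and Pdlim4 (2.24) for Mlkl, St14 (0.908) and Dnmt3a (0.913) for Ninj1, Pcmtd2 (0.493) and Tbc1d14 (0.523) for Nlrp3, and Adgrg1 (1.65) and Marco (1.87) for Fas. St14, a membrane serine protease, was at 26.8 ± 5.52 CPM in A20 KO, 10.8 ± 1.53 in IFNa and 7.69 ± 1.34 in WT cells, and Dnmt3a, a DNA methyltransferase, at 164 ± 36.4 CPM in A20 KO, 55.1 ± 18.1 in IFNa and 42.7 ± 8.91 in WT cells. Marco, a scavenger receptor of macrophages, was at 7.50 ± 1.36 CPM in A20 KO, 0.510 ± 0.591 in IFNa and 0.0339 ± 0.0586 in WT cells, and Adgrg1, an adhesion receptor, at 15.1 ± 3.11 CPM in A20 KO, 2.42 ± 2.93 in IFNa and 0.903 ± 0.968 in WT cells. Pcmtd2 was at 11.9 ± 3.66 CPM in A20 KO, 20.03 ± 2.71 in IFNa and 27.5 ± 12.5 in WT cells.

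Library totals were 7187359 to 9518822 counts in A20 KO, 7041519 to 10246810 in IFNa and 6900598 to 10552756 in WT. Tnfaip3, the gene named in the genotype, was read at 285, 476 and 377 counts in A20 KO libraries, 73, 84 and 74 in IFNa libraries and 232, 51 and 42 in WT libraries, higher in A20 KO than in WT cells (log2 1.95, SE 0.52, edgeR adjusted p = 0.028). Leaving out A20 KO replicate 2, A20 KO replicate 3, WT replicate 2 or WT replicate 3 ended that call, with edgeR adjusted p up to 0.117 over 19 alternatives, and the log2 difference was 2.99 without WT replicate 1. Which exons are removed is unknown here, and a tag at the 3' end does not test the deletion if it lies elsewhere. Across all tested genes, 1416 passed in A20 KO against WT, 411 in IFNa against WT and 723 in A20 KO against IFNa cells. Serpinb6a lies over Ripk1 on the opposite strand in the annotation and held 299, 390 and 342 summed counts in A20 KO, IFNa and WT libraries; whether strand was used in counting is not stated in the sources used here, so Ripk1 counts carry that uncertainty.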

How the data were processed

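The deposited files hold whole-number counts per gene symbol, 1 file per library, which the authors had not normalized. The tools named, per the submitters' processing notes, are STAR 2.7.10b, featureCounts 2.0.6, fastp 0.23.1 and Bowtie2, with build GRCm39. The sources used here do not give their roles, the annotation, the strand setting or how multi-mapped reads were counted. Groups and replicate numbers came from the library titles. Low counts were filtered by filterByExpr (minimum count 10, minimum total 15), and libraries were scaled by TMM and tested with edgeR 4.0.16 (R 4.3.3) in 1 quasi-likelihood fit of all 9 libraries; SEs come from the F statistic, and intervals are 95%. Log CPM for profile distances used a prior count of 2. DESeq2 1.42.0 and limma 3.58.1 (voom) served as alternatives, with other scalings and filters, a replicate block and each library left out; the script was tested on simulated data. Library pairs of 1 group differed far beyond sampling noise (chi-square per degree of freedom at least 14.4), so each was treated as 1 replicate. That does not show that the libraries came from separate mice.

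The 10 genes and the lists were chosen with earlier results of these data known. Named besides the 10 are Tnfaip3, Col1a1, up to 4 genes per list and comparison by smallest p among those past the threshold with no overlap between groups, and the 2 nearest profiles to each called gene. Of 25 listed inflammasome symbols, Gsdmdc1, an older name of Gsdmd, had no row. Motifs were searched in RefSeq promoter windows of GRCm38.p6, a build other than that of the files. Bounds against a group without counts use 3 counts over the group. Figures were drawn with matplotlib 3.10.9 in Python 3.11.15.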

Additional observations from a re-analysis of the deposited data

How the results depend on the processing

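Of 570 single-gene values under alternatives, 530 kept direction and side of the threshold, 20 came to pass, 14 no longer passed and 6 changed sign. In A20 KO against WT cells the count of 4 called genes ran from 3 to 6 over all alternatives. In IFNa against WT cells the count of 1 held except with limma voom, which called 0 (3 at an unadjusted p under 0.05); leaving out any library gave 1. In A20 KO against IFNa cells the count of 1 became 2 with DESeq2, limma voom, the replicate block or a fit of the 6 compared libraries, 3 with no filter on low counts, and 4 with Col1a1 as a covariate, chosen after seeing the data; leaving out 1 library gave 0 to 2. The causes were not tested.

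The sign changes were in IFNa against WT cells, among genes that passed in none of these fits: Casp1 with library size alone (log2 -0.048), and, leaving out 1 library, Casp1 (-0.0858 to 0.157), Ripk1 (-0.374 to 0.0475), Nlrp3 (-0.409 to 0.138) and Gsdmd (-0.0228 to 0.664).

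Over all genes, DESeq2 called 700 in IFNa against WT and 1143 in A20 KO against IFNa cells, and the Col1a1 covariate 728 and 1236. Without A20 KO replicate 2 or 3, 919 and 942 were called in A20 KO against WT, and 421 and 450 in A20 KO against IFNa cells. Without IFNa replicate 1 or 2, 400 and 440 were called in A20 KO against IFNa cells. Library size alone moved the median of all genes to -0.15 in IFNa against WT and 0.12 in A20 KO against IFNa cells, and the share of calls that were higher from 77.4% and 37.5% to 60.9% and 49.4%.

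Deviations of same-numbered libraries from their group means had correlations of -0.371 to 0.237. Libraries of different numbers were not compared in this way, so whether the numbers pair the libraries was not settled. With the replicate block, 3, 1 and 2 of the 10 genes and 1075, 298 and 535 of all genes passed in A20 KO against WT, IFNa against WT and A20 KO against IFNa cells. Depth limits the folds of Mlkl, Fas, Il1rn and Tnfrsf10b: no WT library held over 12 counts of any of them.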
